A study of Homo sapiens with 8 samples.

Results

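Genes that moved the same way when a Tet guide replaced a non-targeting guide, with each of 2 CRISPR activators, were examined in human HEK293T cells. All 8 libraries of the study entered the comparison. The 4 Tet libraries were 2 of dCasMINI-VPR_sgTet and 2 of dCas12a-VPR_crTet, and the 4 controls were 2 of dCasMINI-VPR_sgNT and 2 of dCas12a-VPR_crNT, where NT is the non-targeting guide. The construct was kept as a block, so that each Tet library was set against controls with the same activator protein. Every cell, controls included, belonged to 1 HEK293T line with a TRE3G-GFP reporter, received an activator plasmid and a guide plasmid, and was sorted for mCherry and BFP 2 days after transfection. Activator and guide were therefore present only transiently, and the labels give neither the guide sequences nor whether the replicates of a group came from separate transfections. The p-values below measure only the spread between these libraries, which may be technical.

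HEK293T is a line derived from human embryonic kidney that carries the SV40 large T antigen, a viral protein. dCasMINI and dCas12a are Cas proteins without cutting activity, the former a small engineered one, and VPR is a fusion of the transcription activation domains VP64, p65 and Rta. TRE3G is a promoter built from tet operator repeats, which a Tet guide can address in place of the tetracycline transactivator. Interferon signals through transcription factors of the STAT family and induces antiviral enzymes and the machinery that loads peptides on MHC class I molecules, and DNA damage switches on genes of cell cycle arrest, repair and apoptosis.

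Between 17474404 and 21081942 reads fell in genes per library, so that 3 reads correspond to at most 0.172 CPM (counts of a gene scaled to a common library total), a floor that covers counting error only. Unmapped reads made up 14.4% and 12.7% in the crNT libraries and between 8.32% and 9.62% in the other 6. Replicates differed most in sgTet, where the chi-square of the 2 libraries' counts per degree of freedom was 13.8, against 6.92 in crTet, 3.94 in sgNT and 3.19 in crNT. Of the 11 HEK293T markers all were tested, and IRS4, the most characteristic of them, stood between 811 and 1031 CPM. Of the markers of other cell types, PTPRC (leukocytes), HBB (erythroid cells) and CD68 (macrophages) had 0 reads in all 8 libraries. The count of CD68 says nothing of its level, since the exons of AC016876.2 on the same strand cover nearly all of it and reads that fit both genes are counted as ambiguous, for neither. The 3 hepatocyte markers summed to at most 0.484 CPM. The 5 fibroblast markers summed to 35.1 and 42.3 CPM in sgNT, to 42.6 and 45.6 in sgTet, to 39.5 and 40.8 in crNT, and to 46.5 and 48.0 in crTet, nearly all of it COL1A1.

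With construct as a block, 245 of 16606 genes tested (1.48%) changed with the Tet guide at an adjusted p of 0.05 (edgeR quasi-likelihood, Benjamini-Hochberg), 136 of them higher (0.819%) and 109 lower (0.656%). Changes were small: the median fold among the called genes was 1.33. Among the 245, 225 had Tet and control libraries that did not overlap, in the same direction, within each construct. These were 117 higher (0.705% of genes tested) and 108 lower (0.650%), while 6.21% and 5.80% of all genes tested were separated in that way. Tested alone, dCasMINI-VPR gave 132 calls (0.795%), 78 higher (0.470%) and 54 lower (0.325%). dCas12a-VPR gave 1049 (6.32%), 592 higher (3.56%) and 457 lower (2.75%). Of these, 43 genes were called in both, 25 higher and 15 lower in both and 3 in opposite directions, so that the 40 called in the same direction were 30.3% of the dCasMINI-VPR calls and 3.81% of the dCas12a-VPR calls. A further 31 genes were called only when the constructs were fitted together. The count depended on single libraries. It fell to 94 without sgNT replicate 1, 93 and 117 without crNT replicate 1 or 2, and 151 and 111 without crTet replicate 1 or 2, and rose to 593 without sgTet replicate 1. With scaling to library size alone it was 253, of which 89 were higher and 164 lower, and that scaling moved the median of all genes from 0.00 to -0.03 on the log2 scale.

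**Figure D1:**
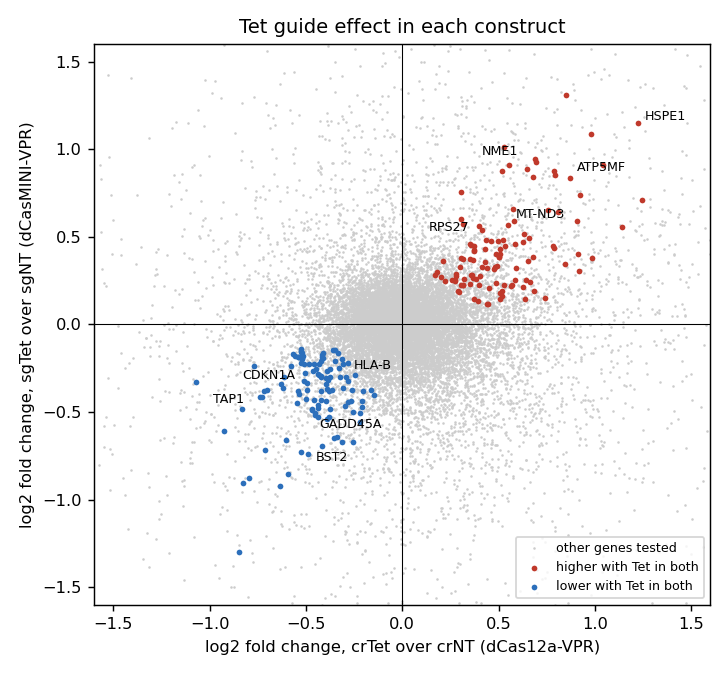
Log2 fold change of Tet over non-targeting guide for each gene tested, with dCas12a-VPR on the horizontal axis and dCasMINI-VPR on the vertical axis. Coloured points are genes called over both constructs with Tet and control libraries separated the same way in each (red higher, blue lower). 219 of the 225 such genes lie inside the axis limits of 1.6, in the upper right and lower left corners, and 6, EGFP among them, lie outside.

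The reporter transcript EGFP served as the check of the labels. It stood at 3.23 and 4.42 CPM in sgNT against 920 and 1094 in sgTet, and at 2.77 and 2.66 in crNT against 804 and 708 in crTet. The groups were far apart in both constructs, with a shared rise of 271-fold (log2 8.08 ± 0.10 SE, adjusted p = 1.08e-25). RELA, whose product p65 is the source of one of the VPR domains, was not called (0.02, adjusted p = 0.926), and neither were ACTB, which encodes actin (0.18, adjusted p = 0.0876), and GAPDH of glycolysis (0.06, adjusted p = 0.696).

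Mitochondrially encoded mRNAs were higher with the Tet guide. These 13 transcripts encode core subunits of the respiratory chain and ATP synthase, and 11 of the 13 rose (84.6%), with a median log2 change over all 13 of 0.44, or 1.36-fold, against a median of 0.00 over all genes. None fell. The 2 that were not called were MT-ND4L (0.87, adjusted p = 0.207) and MT-ATP8 (0.47, adjusted p = 0.276), which overlap MT-ND4 and MT-ATP6. With dCasMINI-VPR alone, 2 of the 13 were called higher (0.470% over all genes), and with dCas12a-VPR alone 8 (3.56% over all genes). The list medians were 0.38 and 0.55.

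MT-ND3, a subunit of complex I, stood at 637 and 570 CPM in sgNT against 873 and 915 in sgTet, and at 546 and 573 in crNT against 736 and 902 in crTet. Every Tet library lay above every control library, a 1.47-fold rise (log2 0.56 ± 0.06, adjusted p = 2.99e-05), and the gene was called in each construct alone as well. MT-ATP6, a subunit of ATP synthase, was at 1574 and 1683 CPM in sgNT against 2813 and 2093 in sgTet, and at 1289 and 1364 in crNT against 1878 and 2083 in crTet. It rose 1.5-fold (0.58 ± 0.07, adjusted p = 0.000166), again without overlap, although sgTet replicate 1 stood well above sgTet replicate 2. MT-CO3, a subunit of cytochrome c oxidase, rose 1.27-fold (0.34, adjusted p = 0.00184), MT-ND2 of complex I 1.33-fold (0.41, adjusted p = 0.00257) and MT-CYB, the cytochrome b of complex III, 1.31-fold (0.39, adjusted p = 0.00418).

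In 12 of the 13 mRNAs sgTet replicate 1 lay above replicate 2, the exception being MT-ND3. Summed over the 13 mRNAs, levels were 25739 and 27449 CPM in sgNT against 40459 and 30212 in sgTet, and 23669 and 24437 in crNT against 32343 and 33892 in crTet. The sums of Tet libraries lay above those of controls in both constructs, at 133% of the control mean with dCasMINI-VPR and 138% with dCas12a-VPR. MT-ND1, MT-ND5 and MT-ND6 overlapped between sgTet and sgNT: MT-ND5, for example, was at 1365 and 1502 CPM in sgNT and 2054 and 1495 in sgTet. The share of gene reads from the whole mitochondrial genome was 4.0% ± 0.445 (SD) in the 4 Tet libraries and 3.11% ± 0.159 in the 4 controls. An exact permutation test within constructs gave a two-sided p of 0.0556, the smallest that the 36 regroupings allow. Fewer members were called without sgNT replicate 1 (7), crNT replicate 1 (7), crTet replicate 1 (5) or crTet replicate 2 (5), and none fell in any of these fits. In bulk RNA, a change in the number of mitochondrial transcripts per cell, in the RNA from the nuclear genome and in the mix of cells sorted cannot be told apart.

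The nuclear genes of the same enzymes were higher in part. Of 75 nuclear respiratory chain and ATP synthase genes tested, 11 rose (14.7%, against 0.819% of all genes tested) and 0 fell, and the median was 0.15. The calls were 4 subunits of ATP synthase (ATP5MF, ATP5PF, ATP5PD and ATP5PO), 3 of complex I (NDUFA3, NDUFB1 and NDUFB2), 2 of complex III (UQCRQ and UQCR10) and 2 of cytochrome c oxidase (COX6A1 and COX7B). With dCasMINI-VPR alone, 6 of the 75 were called higher (0.470% over all genes), and with dCas12a-VPR alone 20 (3.56% over all genes). ATP5MF was at 16.8 and 13.6 CPM in sgNT against 26.9 and 27.3 in sgTet, and at 14 and 12 in crNT against 21.5 and 26.1 in crTet. This was a 1.80-fold rise (0.85 ± 0.11, adjusted p = 0.000101), of nearly the same size in both constructs (0.83 and 0.87). UQCRQ, which belongs to complex III, went from 38.0 and 39.5 CPM in sgNT to 62.5 and 58.5 in sgTet, and from 26.7 and 26.6 in crNT to 39.9 and 53.7 in crTet. It rose 1.65-fold (0.72, adjusted p = 9.75e-05), and 20.8% of its exonic length overlaps GDF9, where reads are counted for neither gene. UQCRQ, ATP5PF and ATP5PD each lost the call with forward-strand counts and with reverse-strand counts.

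The summed level of the list did not separate the guides. Nuclear respiratory chain genes summed to 11388 and 11173 CPM in sgNT against 11142 and 12265 in sgTet, and to 10650 and 10989 in crNT against 10863 and 12347 in crTet. Tet and control libraries overlapped in both constructs, at 104% and 107% of the control mean. The count of 11 was 6 without sgNT replicate 1, crNT replicate 1 or crNT replicate 2, 5 without crTet replicate 2, and 24 without sgTet replicate 1. It was 5 with forward-strand counts, 6 with reverse-strand counts and 7 with scaling to library size alone.

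Cytosolic ribosomal protein genes showed the same pattern of small rises in single members. Of 78 tested, 13 rose (16.7%, against 0.819% of all genes tested) and 0 fell. In 73 the fold change was above 0 on the log2 scale, and the median was 0.12. With dCasMINI-VPR alone, 4 of the 78 were called higher (0.470% over all genes), and with dCas12a-VPR alone 20 (3.56% over all genes). RPS27 was at 632 and 587 CPM in sgNT against 853 and 849 in sgTet, and at 590 and 631 in crNT against 745 and 907 in crTet. All Tet libraries exceeded all controls, a 1.37-fold rise (0.46 ± 0.06, adjusted p = 0.000206) that was called in each construct alone. RPL38 rose 1.37-fold (0.46, adjusted p = 0.000426), RPL23 1.21-fold (0.28, adjusted p = 0.00871) and FAU, which encodes a ubiquitin-like protein fused to the ribosomal protein eS30, 1.37-fold (0.46, adjusted p = 0.00215). RPS29 rose by the largest amount among them, 1.70-fold (0.76, adjusted p = 0.000426), from 111 and 98.5 CPM in sgNT to 183 and 194 in sgTet and from 95.7 and 95.9 in crNT to 124 and 183 in crTet.

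Summed over the list, ribosomal protein mRNAs came to 90877 and 89217 CPM in sgNT against 89905 and 99133 in sgTet, and to 84429 and 88761 in crNT against 90134 and 102089 in crTet. With dCas12a-VPR the Tet libraries were above the controls, and with dCasMINI-VPR they overlapped. The count of 13 was 4 without sgNT replicate 1, 4 and 5 without crNT replicate 1 or 2, 5 without crTet replicate 2, 8 without sgTet replicate 2 and 29 without sgTet replicate 1. With scaling to library size alone it was 6.

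Single members of other lists rose beside them. MYC, the growth-promoting transcription factor, was the only 1 of 36 immediate early genes called over both constructs. It was at 120 and 125 CPM in sgNT against 143 and 144 in sgTet, and at 80.5 and 95.5 in crNT against 133 and 129 in crTet, a 1.32-fold rise (0.40, adjusted p = 0.00608). MYC was called with dCas12a-VPR alone (0.57, adjusted p = 6.82e-05) but not with dCasMINI-VPR alone (0.22, adjusted p = 0.240). Of the 36, dCas12a-VPR alone gave 11 calls higher and 2 lower (3.56% and 2.75% over all genes). dCasMINI-VPR alone gave 1 higher and 0 lower (0.470% and 0.325%), and 9 differed between constructs (1.35%). The list sum was at 174.5% of the control mean with dCas12a-VPR and 100.2% with dCasMINI-VPR. NACA, the alpha subunit of the nascent polypeptide-associated complex, rose 1.29-fold (0.37, adjusted p = 0.000901), the only call among 19 genes that host snoRNAs or serve translation. Outside the lists, and chosen after their values were seen, the nucleolar proteins NCL (0.28, adjusted p = 0.0280), NPM1 (0.22, adjusted p = 0.0386) and NIFK (0.31, adjusted p = 0.0390) rose, as did the spermidine synthase SRM (0.40, adjusted p = 0.000982). VIM, the intermediate filament vimentin, was the only call among the 11 HEK293T markers (1.33-fold, adjusted p = 0.00277).

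**Figure D2:**
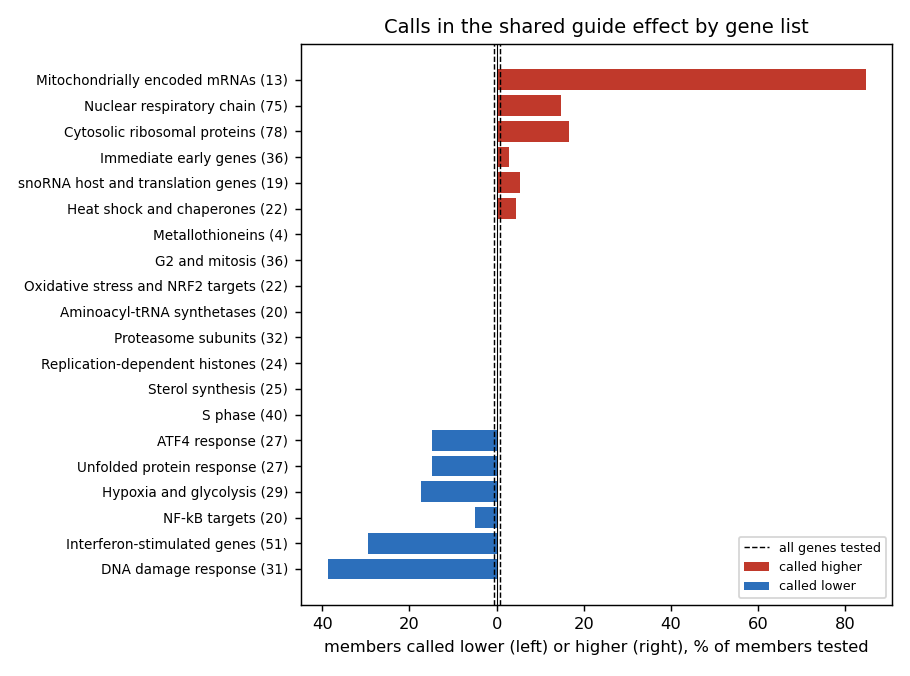
Share of the tested members of each gene list that were called lower (left, blue) or higher (right, red) over both constructs, with the number tested in brackets. Dashed lines mark the 0.656% of all genes called lower and the 0.819% called higher. The longest bars are the mitochondrially encoded mRNAs on the right (84.6%) and the DNA damage response genes on the left (38.7%).

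Part of the DNA damage response genes fell with the Tet guide. Of 31 tested, 12 fell (38.7%, against 0.656% of all genes tested) and 0 rose. In 28 of the 31 the fold change was below 0 on the log2 scale, with a median of -0.30, which is 0.811 of the control level. With dCasMINI-VPR alone, 7 were called lower and 0 higher (0.325% and 0.470% over all genes). With dCas12a-VPR alone, 13 were called lower and 1 higher (2.75% and 3.56% over all genes). All 12 had Tet libraries below control libraries in each construct, as did 108 of the 109 genes called lower over all genes tested. They cover growth arrest (CDKN1A, GADD45A), death receptor signalling (TNFRSF10B), nucleotide excision repair (DDB2, XPC), the sestrins (SESN1, SESN2), nucleotide supply (RRM2B) and the mitochondrial reductase FDXR.

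CDKN1A, which encodes the cyclin-dependent kinase inhibitor p21, stood at 231 and 220 CPM in sgNT against 168 and 190 in sgTet, and at 394 and 370 in crNT against 273 and 270 in crTet. It was lower in every Tet library than in the controls of its construct, 1.33-fold lower in the shared estimate (-0.41 ± 0.06, adjusted p = 0.000682). The crTet libraries nevertheless held more CDKN1A than the sgNT controls. GADD45A, a stress sensor of growth arrest and repair, was at 96.5 and 90.1 CPM in sgNT against 63.5 and 69.4 in sgTet, and at 115 and 103 in crNT against 77.0 and 80.4 in crTet. Its fall was of like size in the 2 constructs (-0.49 and -0.47) and 1.39-fold in the shared estimate (adjusted p = 0.000344). TNFRSF10B, the TRAIL receptor DR5, was at 204 and 192 CPM in sgNT against 137 and 157 in sgTet, and at 256 and 244 in crNT against 179 and 174 in crTet. It was 1.38-fold lower (-0.46, adjusted p = 0.000204), without overlap in either construct.

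FDXR was 1.34-fold lower (-0.43, adjusted p = 0.00112). These calls do not include MDM2, a ubiquitin ligase of the response (0.09, adjusted p = 0.654), the apoptosis effector BAX (-0.17, adjusted p = 0.324) or BTG2 (0.07, adjusted p = 0.791). The sum over the list, which was not tested, was lower in both constructs without overlap, at 3485 and 3346 CPM in sgNT against 2984 and 3054 in sgTet, and at 4009 and 3877 in crNT against 3374 and 3289 in crTet. Without crNT replicate 1 the count of 12 was 7, and with the other libraries left out in turn it was between 8 and 13.

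Interferon-stimulated genes were lower as well. Of 51 tested, 15 fell (29.4%, against 0.656% of all genes tested) and 0 rose, and the median was -0.28, or 0.824 of the control level. With dCasMINI-VPR alone, 5 were called lower and 0 higher (0.325% and 0.470% over all genes), and the list median was -0.16. With dCas12a-VPR alone, 29 were called lower and 2 higher (2.75% and 3.56% over all genes), and the median was -0.39. The guide effects of 5 members differed between the constructs (1.35% over all genes). The 15 include antiviral enzymes (OAS1, OAS3, OASL), the restriction factors BST2 and TRIM22, the RIG-I-like receptor DHX58, the signalling factor STAT2, the negative regulator USP18, and TAP1 and HLA-B of MHC class I antigen presentation. All 15 had Tet libraries below the controls of the same construct, as did 108 of the 109 genes called lower over all genes tested.

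The promoter windows of the called members show which of them carry the interferon-stimulated response element, searched as GAAA, 2 bases of any kind and GAAA on both strands in the 250 bases before and 50 after the start of the gene (RefSeq, GRCh38.p14). This form was present in 993 of 27195 windows (3.65%), in 22 of the 38 list members with a window, and in 5 of the 10 called members with one (BST2, TAP1, OAS3, IFI27 and IFI44, but not OAS1, HLA-B, CMPK2, IFI35 or STAT2). Other spacings were not searched, and the OAS1 and IFI35 windows hold 2 GAAA blocks at a closer spacing. A window without a match may therefore still hold another form of the element. A match is a description of the letters and not evidence of binding. The 4 windows below belong to called genes described next. Each is given 5′ to 3′ on the strand of its gene, with matches in capitals, overlapping matches merged, and a match on the other strand reads TTTC, 2 bases and TTTC.
BST2: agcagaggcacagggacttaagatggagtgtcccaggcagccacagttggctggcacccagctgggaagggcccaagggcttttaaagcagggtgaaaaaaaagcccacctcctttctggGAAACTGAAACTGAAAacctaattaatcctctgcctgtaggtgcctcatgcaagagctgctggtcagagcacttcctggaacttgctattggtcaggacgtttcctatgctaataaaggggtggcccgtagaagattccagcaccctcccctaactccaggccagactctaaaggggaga
TAP1: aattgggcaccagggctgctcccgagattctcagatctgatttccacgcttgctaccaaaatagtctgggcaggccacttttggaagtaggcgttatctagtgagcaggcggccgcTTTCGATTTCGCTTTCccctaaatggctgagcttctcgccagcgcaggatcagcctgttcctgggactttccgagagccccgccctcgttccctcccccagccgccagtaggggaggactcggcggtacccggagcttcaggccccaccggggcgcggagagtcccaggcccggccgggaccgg
OAS3: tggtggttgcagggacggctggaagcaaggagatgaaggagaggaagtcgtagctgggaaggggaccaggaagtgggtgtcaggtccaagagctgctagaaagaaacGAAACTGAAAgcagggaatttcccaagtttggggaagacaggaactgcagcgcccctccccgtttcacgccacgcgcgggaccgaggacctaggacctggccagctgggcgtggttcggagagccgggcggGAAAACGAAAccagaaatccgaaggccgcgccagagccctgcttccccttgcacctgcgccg
IFI27: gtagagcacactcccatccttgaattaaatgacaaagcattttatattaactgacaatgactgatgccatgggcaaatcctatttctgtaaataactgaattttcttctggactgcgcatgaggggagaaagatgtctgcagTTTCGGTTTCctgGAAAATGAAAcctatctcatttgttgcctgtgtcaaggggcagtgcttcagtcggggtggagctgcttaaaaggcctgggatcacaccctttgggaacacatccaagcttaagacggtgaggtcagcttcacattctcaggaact
The windows lie at chr19:17405581-17405880 (minus strand) for BST2, chr6:32853655-32853954 (minus strand) for TAP1, chr12:112938224-112938523 (plus strand) for OAS3 and chr14:94110486-94110785 (plus strand) for IFI27. Each of the 4 holds 2 matches, which overlap in BST2 and TAP1 and stand apart in OAS3 and IFI27.

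BST2, or tetherin, which holds budding virus particles at the cell surface, was at 61.5 and 55.1 CPM in sgNT against 33.5 and 36.3 in sgTet, and at 194 and 184 in crNT against 147 and 122 in crTet. It was 1.52-fold lower with the Tet guide (-0.61 ± 0.08, adjusted p = 0.000108), and called in each construct alone. TAP1, a subunit of the transporter that brings peptides to MHC class I, was at 70.3 and 61.3 CPM in sgNT against 45.4 and 53.2 in sgTet, and at 158 and 144 in crNT against 95.7 and 85.1 in crTet. It was 1.5-fold lower (-0.58 ± 0.08, adjusted p = 0.000304), again without overlap. OAS3, an enzyme that senses double-stranded RNA, was at 264 and 253 CPM in sgNT against 206 and 203 in sgTet, and at 554 and 525 in crNT against 443 and 378 in crTet. Its shared fall was 1.29-fold (-0.37, adjusted p = 0.00173), and each construct alone gave a call (-0.34 and -0.39).

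OAS1 was 1.39-fold lower (-0.47, adjusted p = 0.00535), TRIM22 1.51-fold (-0.59, adjusted p = 0.00726) and DHX58 1.63-fold (-0.70, adjusted p = 0.00926). IFI27, an interferon-induced mitochondrial protein, went from 18.5 and 19.6 CPM in sgNT to 12.6 and 15.7 in sgTet, and from 62.0 and 63.9 in crNT to 44.9 and 46.8 in crTet (-0.45, adjusted p = 0.00766). HLA-B, an MHC class I heavy chain, went from 194 and 190 CPM in sgNT to 149 and 164 in sgTet, and from 318 and 307 in crNT to 257 and 254 in crTet (-0.29, adjusted p = 0.00901). IFI27 and HLA-B are called members of the list outside the naming rule. The HLA genes are near copies of one another, so their counts are uncertain. Outside the list, and chosen after their values were seen, HLA-C (-0.32, adjusted p = 0.0154), the ubiquitin ligase TRIM25 (-0.35, adjusted p = 0.00535) and EPSTI1 (-0.47, adjusted p = 0.00373) were lower too.

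Not every member of the list moved. IFIT1 was at 561 and 551 CPM in sgNT against 580 and 579 in sgTet, and at 977 and 1035 in crNT against 995 and 984 in crTet (0.02, adjusted p = 0.926). ISG15 missed the threshold (-0.23, adjusted p = 0.0847), as did IFIT3 (-0.11, adjusted p = 0.595).

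The starting level of the response differed between the constructs. In 48 of the 51 list members, and in all 15 called ones, both crNT libraries lay above both sgNT libraries. The list summed to 4393 and 4256 CPM in sgNT against 3778 and 3884 in sgTet, and to 8696 and 8501 in crNT against 7097 and 6718 in crTet. The Tet libraries were at 88.6% of the control mean with dCasMINI-VPR and at 80.3% with dCas12a-VPR, and sums did not overlap in either. The same order of controls was seen in 11 of the 12 called DNA damage response genes, but in only 16 of the 31 tested. Over all genes tested it was seen in 27.9%, and among the 109 genes called lower in 96. The crNT libraries were also those with the most unmapped reads; the part of this in the results was not tested. The count of 15 interferon-stimulated genes was 26 without sgTet replicate 1, and 9, 6 and 8 when sgNT replicate 1, crNT replicate 1 or crTet replicate 2 was left out.

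**Figure D3:**
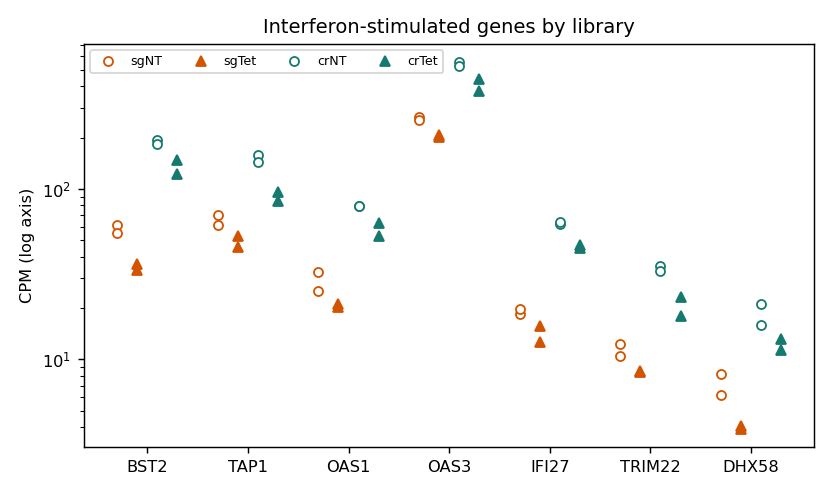
CPM on a log axis of 7 called interferon-stimulated genes in each of the 8 libraries, with open circles for controls, triangles for Tet libraries, and colours for the constructs. In each gene the Tet libraries lie below the controls of the same construct, while both dCas12a-VPR groups lie above those of dCasMINI-VPR, as for BST2 with 194 and 184 CPM in crNT against 61.5 and 55.1 in sgNT.

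**Figure D4:**
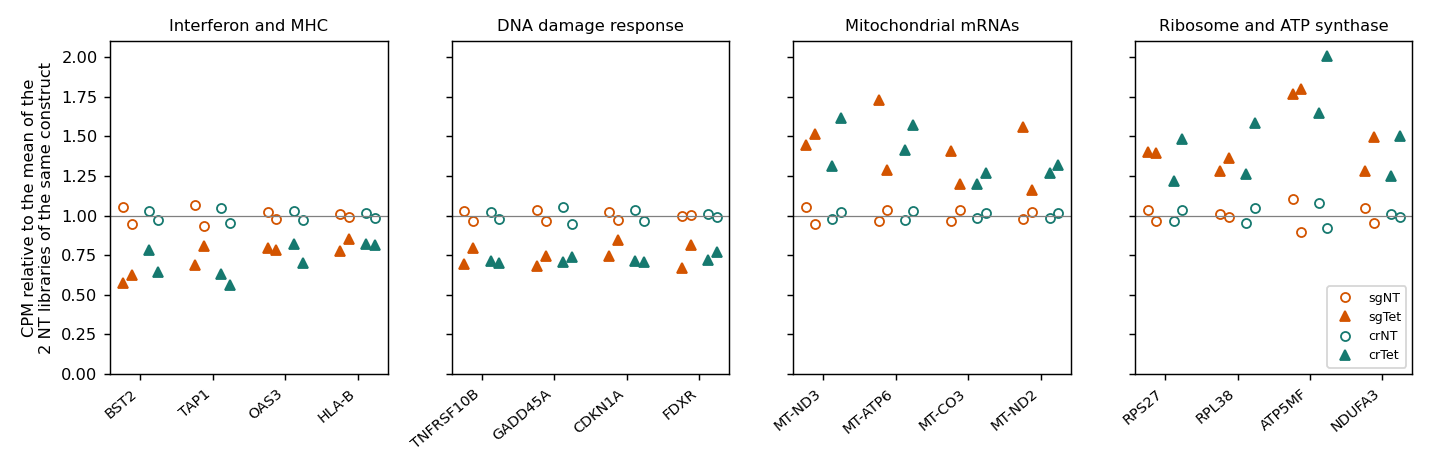
CPM of 16 genes called over both constructs in each library, relative to the mean of the 2 control libraries of the same construct (grey line at 1). All but HLA-B fall under the naming rule. The genes were taken from the called ones, so their distance from 1 is not a separate result. Tet libraries lie between 0.564 and 0.853 for 4 interferon and MHC genes, between 0.669 and 0.843 for 4 DNA damage response genes, between 1.16 and 1.73 for 4 mitochondrial mRNAs, and between 1.22 and 2.01 for 4 ribosomal protein, ATP synthase and complex I genes.

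Smaller parts of 3 other stress programmes fell, the unfolded protein response, the ATF4 response and the hypoxia and glycolysis genes, while no tested member of the heat shock and NRF2 lists was called lower. Tested alone, dCasMINI-VPR gave 1, 0 and 0 calls lower in these 3 lists and dCas12a-VPR 10, 8 and 8. With dCasMINI-VPR the list sums overlapped those of the controls, at 99.8%, 97.3% and 101% of the control mean. With dCas12a-VPR they were at 92.3%, 92.0% and 96.1%, and the last of these overlapped. In the unfolded protein response, which answers misfolded protein in the endoplasmic reticulum, 4 of 27 genes fell and 0 rose. This was 14.8%, against 0.656% of all genes tested that fell, and the list median was -0.10. The 4 were HERPUD1, DNAJB9 and EDEM1, which serve degradation of or binding to misfolded proteins there, and XBP1, a transcription factor of the response. XBP1 was at 250 and 223 CPM in sgNT against 206 and 210 in sgTet, and at 336 and 320 in crNT against 226 and 228 in crTet, 1.28-fold lower over both (-0.36, adjusted p = 0.00702). HERPUD1 was at 211 and 173 CPM in sgNT against 160 and 136 in sgTet, and at 204 and 190 in crNT against 151 and 129 in crTet, 1.35-fold lower (-0.43, adjusted p = 0.00314). The chaperones HSPA5 (0.02, adjusted p = 0.928) and CALR (-0.10, adjusted p = 0.449) were not called. The count of 4 was 2 without sgNT replicate 1 and 7 without sgTet replicate 1.

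Of the 4 called genes, XBP1 alone had a match to the endoplasmic reticulum stress element in its promoter window. The element was searched as CCAAT, 9 bases of any kind and CCACG on both strands, and other forms were not searched. A match was found in 22 of 27195 windows (0.0809%) and in 6 of the 23 list members with a window. The match of XBP1 is shown in capitals in the window at chr22:28800520-28800819 (minus strand, GRCh38.p14, RefSeq).
XBP1: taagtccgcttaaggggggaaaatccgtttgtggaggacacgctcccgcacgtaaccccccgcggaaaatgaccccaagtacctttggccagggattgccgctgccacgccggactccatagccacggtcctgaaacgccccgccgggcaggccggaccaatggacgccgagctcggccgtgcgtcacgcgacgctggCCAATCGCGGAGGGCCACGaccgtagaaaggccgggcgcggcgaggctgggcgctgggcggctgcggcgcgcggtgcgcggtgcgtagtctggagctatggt
The match begins 52 bases before the start of the gene and ends 34 before it.

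In the ATF4 response, the transcription programme of amino acid shortage, 4 of 27 genes fell (14.8%, against 0.656% of all genes tested) and 0 rose. SESN2, an inhibitor of mTORC1 that is also counted in the DNA damage response, was at 223 and 206 CPM in sgNT against 184 and 195 in sgTet, and at 304 and 278 in crNT against 205 and 202 in crTet (1.27-fold lower, adjusted p = 0.00871). TRIB3, a pseudokinase, was 1.30-fold lower (-0.37, adjusted p = 0.0195), CTH, which makes cysteine from cystathionine, 1.28-fold (-0.36, adjusted p = 0.0292), and SLC3A2, an amino acid transporter subunit, 1.19-fold (-0.25, adjusted p = 0.0387). In each of the 4 the fall was larger with dCas12a-VPR, though the difference between constructs passed the test for none. This count was 0 without crNT replicate 1 and 1 without sgNT replicate 1, crNT replicate 2, crTet replicate 1 or crTet replicate 2, and 1 with forward-strand counts.

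Among 29 genes of hypoxia and glycolysis 5 fell (17.2%, against 0.656% of all genes tested) and 0 rose. They were the glucose transporters SLC2A1 (1.22-fold lower, adjusted p = 0.0306) and SLC2A3 (1.43-fold, adjusted p = 0.0217), the glycolytic enzymes ENO2 (1.25-fold, adjusted p = 0.0306) and ALDOC (1.29-fold, adjusted p = 0.0349), and P4HA1, a collagen prolyl hydroxylase (1.27-fold, adjusted p = 0.0213). SLC2A3 went from 15.3 and 13 CPM in sgNT to 12.7 and 11.3 in sgTet, and from 29.7 and 28.6 in crNT to 17.3 and 16.9 in crTet, without overlap but with most of the change in dCas12a-VPR (-0.24 and -0.77, adjusted p of the difference = 0.187). These calls rested on few libraries: the count was 1 without sgNT replicate 1 and 0 without either crNT or either crTet library, and 0 with reverse-strand counts.

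Other lists held almost no calls. RELB, a subunit of NF-kB that is itself an NF-kB target, was the only call among 20 NF-kB targets, from 9.68 and 4.77 CPM in sgNT to 4.50 and 4.36 in sgTet and from 12.2 and 11 in crNT to 7.07 and 7.13 in crTet (1.64-fold lower, adjusted p = 0.0364). No listed member was called among 25 sterol synthesis genes, 40 S phase genes, 36 genes of G2 and mitosis, 24 replication-dependent histone genes, 32 proteasome subunits, 20 aminoacyl-tRNA synthetases, 22 oxidative stress genes or 4 metallothioneins. The largest median among these 8 lists was 0.07, in the metallothioneins. In these poly(A)-selected libraries the whole histone list summed to between 169 and 205 CPM, so that its lack of calls says little. The histone list did not include H2BC15, a histone gene that was called lower (1.82-fold, adjusted p = 0.0207).

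Among the genes named for the largest rises, HSPE1 followed EGFP and LIMS2. It encodes the mitochondrial co-chaperonin that works with HSPD1, and was at 12 and 12.1 CPM in sgNT against 28.6 and 24.9 in sgTet, and at 6.56 and 6.99 in crNT against 11.9 and 19.8 in crTet. It rose 2.27-fold (1.18 ± 0.13, adjusted p = 2.99e-05) and was called in each construct alone, the only call among 22 heat shock and chaperone genes. Its neighbour HSPD1, which shares its promoter region, was not called (0.17, adjusted p = 0.123). Reads of HSPE1 can be lost to near-identical pseudogenes, and 23.9% of its exonic length overlaps HSPD1, so its level is uncertain. NME1, a nucleoside diphosphate kinase, went from 36.4 and 33.0 CPM in sgNT to 69.7 and 62.1 in sgTet, and from 29.2 and 31.2 in crNT to 41.7 and 56.0 in crTet. It rose 1.76-fold (0.81, adjusted p = 2.99e-05), with 18.6% of its length shared with the readthrough gene NME1-NME2.

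LIMS2, an adaptor of focal adhesions, rose 2.53-fold, most of it in dCasMINI-VPR (1.94 against 0.70 with dCas12a-VPR, adjusted p of the difference = 0.127), from 1.90 and 1.93 CPM in sgNT to 6.80 and 7.89 in sgTet and from 1.90 and 2.27 in crNT to 3.02 and 3.77 in crTet. The other genes with the largest rises under the naming rule were NHSL2 (2.05-fold), TMEM256 (2.12-fold), APOC1 (1.97-fold), the small RNA BCYRN1 (1.97-fold), TMEM205 (1.78-fold), the mitochondrial ribosomal protein MRPL12 (1.78-fold), the gamma-tubulin partner MZT2B (1.78-fold), ATP5PO (1.77-fold), TMA7 (1.76-fold) and CNFN (1.70-fold). Most of them are short or overlapped genes at low level. TMEM256, TMEM205, MZT2B and TMA7 lost the call both with forward-strand and with reverse-strand counts, and the others, except BCYRN1, with 1 of these. TMEM256 (adjusted p = 0.0472), APOC1 (adjusted p = 0.0363) and TMEM205 (adjusted p = 0.0313) also lost it in a fit with limma-voom. MRPL12 shares 68.2% of its exonic length with another gene, TMA7 53.2%, MZT2B 44.9%, APOC1 43.2%, TMEM205 41.4% and TMEM256 29.8%, and reads that fall in the shared part of 2 genes are counted for neither, so that these counts come from the rest of each gene.

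Among the largest falls were RASGRP3, an exchange factor for Ras (8.81 and 7.94 CPM in sgNT against 4.60 and 4.26 in sgTet, with 9.84 and 11.3 in crNT against 6.73 and 6.92 in crTet; 1.70-fold lower, adjusted p = 0.00538), and ERAP2, an aminopeptidase that trims peptides for MHC class I (1.53-fold, adjusted p = 0.0280). TSPAN11 was 1.55-fold lower (adjusted p = 0.00520). The remaining falls under the rule were the histone gene H2BC15 (1.82-fold), TRIM69 (1.78-fold), the lysyl oxidase LOXL4 (1.71-fold), the pseudogene ZNF767P (1.6-fold), the dynein chain DNAI3 (1.58-fold), RTL5 (1.47-fold) and ZNF79 (1.46-fold).

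Of the 20 genes called higher by at least 2-fold over both constructs, 9 were separated the same way in each, and 14 were called with dCasMINI-VPR but not with dCas12a-VPR. In 6 of the 20 no read was present in any dCas12a-VPR library. NEUROG3, an endocrine progenitor factor, named after its values were seen, had 5.85 and 7.21 CPM in sgTet, 0 in all 4 control libraries and 0.0488 and 0 in crTet. Such genes passed the shared test through 1 construct and are not counted among the 225. UPK1B, a urothelial membrane protein, and KISS1R, the kisspeptin receptor, both named after their values were seen, did rise in both. UPK1B went from 0.410 and 0.170 CPM in sgNT to 4.05 and 3.63 in sgTet, and from 0.102 and 0.197 in crNT to 0.732 and 0.878 in crTet. Its controls lay near the floor, with 11 reads over the sgNT and 6 over the crNT libraries, so that the size of its rise is imprecise. KISS1R went from 0.307 and 0.908 to 4.25 and 3.68 CPM, and from 0.973 and 0.345 to 2.44 and 2.17.

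Of the 224 genes whose guide effects differed between constructs (1.35% of those tested), 4 were among the 245. The test of the difference says nothing of genes without reads in some groups, such as NEUROG3, for which no usable error could be fitted. ATF3, a stress-induced transcription factor, rose in dCasMINI-VPR, from 184 and 166 to 331 and 303 CPM, and fell in dCas12a-VPR, from 225 and 216 to 175 and 154 CPM. JUN, a subunit of AP-1, rose in dCas12a-VPR, from 617 and 737 to 1588 and 1453 CPM, while sgNT had 1028 and 1166 and sgTet 947 and 989. These genes had no shared call (ATF3 adjusted p = 0.815, JUN 0.577).

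The called genes differed in length from the genes tested, a property that no test of the guide used. Genes called higher had a median exonic length of 2470 bases and genes called lower 4661, against 4543 over all tested genes with a length. Among the shortest genes (1 of 5 equal parts), from 67 to 2275 bases, 1.82% were called higher and 0.243% lower. In the middle part, 3765 to 5435 bases, 0.546% were called higher and 1.18% lower. The shift of the shortest genes was not alike in the constructs, with a median log2 fold change over all of them of 0.12 with dCas12a-VPR and 0.00 with dCasMINI-VPR. When a trend with length and GC content was removed from each library, 543 genes were called, among them 237 of the 245, and the shortest part held 66 called higher and 38 lower, against 60 and 8 before. The lists kept their direction in that fit, with 9 of 13 mitochondrial mRNAs, 16 of 78 ribosomal protein genes and 12 of 75 respiratory chain genes called higher, and 14 of 31 DNA damage response genes and 26 of 51 interferon-stimulated genes called lower.

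**Figure D5:**
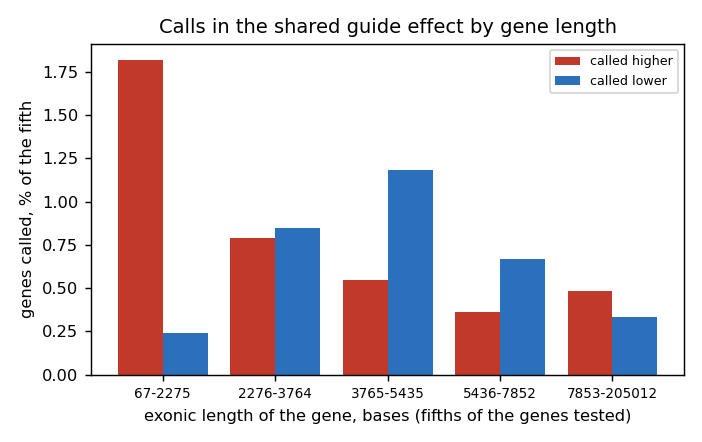
Percent of genes called higher (red) or lower (blue) over both constructs in each of 5 equal parts of the genes by exonic length, in bases. The shortest part holds the most genes called higher (1.82%) and the middle part the most called lower (1.18%).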

How the data were processed

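Poly(A)-selected mRNA was copied with random hexamers and sequenced, per the labels' protocols. The submitters' processing notes name STAR and the build hg38, and the authors deposited unnormalized read counts for each gene. The STAR version and the annotation are not given in the sources used here. The column that ignores strand was used. The 4 totals that name no gene held 25.3% to 29.9% of reads and were left out. From the counts, 16606 genes passed edgeR's filter by group and were fitted with edgeR 4.0.16 in R 4.3.3 (robust quasi-likelihood, TMM scaling, two-sided), with construct and guide as terms for the shared effect and 4 group means for each construct's effect and their difference. The shared fit had 5 residual and 18.4 prior degrees of freedom and a biological coefficient of variation of 9.59%. A gene was called when its Benjamini-Hochberg adjusted p, taken over the 16606 genes, was under 0.05. CPM are scaled by TMM. Log2 fold changes are given ± SE, the size of the fold change over the root of F. On simulated counts the fit recovered 82 of every 100 genes changed by 0.5 on the log2 scale and 100 of 100 changed by 1, with 11 false calls among 16141 genes. The simulation gave all genes and groups the same dispersion and changed only well-counted genes, equally in both constructs. In the data the spread of replicates differed between groups. The median size of change was 0.45 in genes called higher and 0.37 in those called lower. The rates of the simulation therefore need not hold for the data.

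Named genes were EGFP, RELA, GAPDH and ACTB; the 15 largest rises and 15 largest falls among called genes with a symbol, a mean log2 CPM of at least 1 and libraries separated in both constructs; from each list, at most 5 called members with the smallest adjusted p; and the 5 genes with the smallest adjusted p in the difference. The 25 lists hold 700 genes, of which 698 were matched and 648 tested. Lists, members and tests were chosen with earlier results of these data known. Of 27195 RefSeq promoter windows, members were matched by symbol. Alternatives used DESeq2 1.42.0, limma 3.58.1 (voom), other scalings, filters and strand columns, length and GC offsets (mgcv 1.9.3), replicate blocks and leaving out each library. No reads were reanalysed, and guide sites were not searched. Some genes are not reported here, though they enter the fits and counts.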

Additional observations from a re-analysis of the deposited data

Results flagged for a closer look

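For 8 of the genes named or called and reported here, the effect of the Tet guide differed between the constructs by the test of the difference (dCasMINI-VPR minus dCas12a-VPR, log2, edgeR, adjusted over all genes). The difference was 1.80 ± 0.11 (SE) for NKX2-5, a heart homeobox factor that went from 87.3 and 89.1 to 345 and 341 CPM with dCasMINI-VPR and from 69.7 and 79.3 to 81.0 and 84.9 with dCas12a-VPR (adjusted p = 8.52e-13). It was 1.28 for ATF3 (adjusted p = 3.12e-09), -1.35 for JUN (adjusted p = 4.12e-09) and -1.25 for DUSP1, a phosphatase of MAP kinases (adjusted p = 1.24e-08). It was -1.84 for IRS4-AS1 (adjusted p = 7.00e-07), of which 23.8% overlaps IRS4 on the other strand, where reads are counted for neither gene.

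Among the genes called over both constructs, the difference was 5.44 for the lincRNA ENSG00000264451.1 (adjusted p = 0.0169), which held 8 reads over the sgNT and 6 over the crNT libraries, so that its fitted size is imprecise. It was 2.59 for GDPD3 (adjusted p = 0.0300) and -0.50 for the nuclear receptor gene NR2F1 (adjusted p = 0.0402).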

How the results depend on the processing

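No named gene reversed direction in an alternative run if it was called there or in the main run. Sign changes of named genes called in neither were not counted. With library size alone the shared calls went from 136 higher and 109 lower to 89 higher and 164 lower. The 245 shared calls became 369 with DESeq2, 464 without a filter on low counts, 543 with length and GC trends removed, 683 as the mean of the 2 effects in the 4-group model, 89 at an adjusted p of 0.01 and 11 without the construct block. The 225 genes that moved the same way became 480, 503, 82 and 11 under the last 4 of these in that order, and 40 if called in each construct alone. The dCasMINI-VPR calls became 276 without the filter and 202 with trends removed, the dCas12a-VPR calls 661 with forward-strand counts, and the calls of the difference 450 without the filter and 106 with forward-strand counts. With 1 library left out, counts ran from 93 to 593 for the shared effect, 81 to 553 for genes moving the same way, 50 to 1475 for dCasMINI-VPR, 135 to 1965 for dCas12a-VPR and 28 to 1835 for the difference; a library left alone in its group is taken to vary like the others. Of 67 named genes called, 7 kept the call in every alternative (EGFP, ATP5MF, NME1, MT-ND3, RPS27, RPL38 and NDUFA3), and 58 lost it without the construct block. The cause of these changes was not tested.

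Same-numbered replicates correlated in their deviations from group means by 0.07 in dCasMINI-VPR (sgNT with sgTet) and 0.11 in dCas12a-VPR, over 10171 genes. Across constructs it was 0.24 for sgTet with crTet and -0.003 for sgNT with crNT. The labels name no shared source, so the numbers were taken as names. A replicate block within constructs gave 155 shared calls, 144 genes moving the same way, 347 calls of the difference, 6 ribosomal protein genes, 2 of the ATF4 response and 2 of hypoxia and glycolysis, and a replicate block over both constructs gave 400 calls of the difference.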

Other observations

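Several factors of cell fate outside the lists, picked after their values were seen, were higher with the Tet guide in both constructs. HES1, a repressor downstream of Notch, went from 55.7 and 62.5 to 78.2 and 75.5 CPM with dCasMINI-VPR and from 20.2 and 27.4 to 49.7 and 44.6 with dCas12a-VPR (log2 0.67, edgeR adjusted p = 0.00911). ID1, an inhibitor of basic helix-loop-helix factors, rose by 0.44 (adjusted p = 0.0308) and SOX9 by 0.46 (adjusted p = 0.0463). DANCR, a noncoding RNA that hosts snoRNAs, went from 59.8 and 60.6 to 83.7 and 80.4 CPM and from 40.9 and 39.1 to 52.7 and 62.9 (0.49, adjusted p = 0.000853). SLIRP, which binds mitochondrial mRNAs, went from 73.4 and 68.5 to 107 and 98.9 CPM and from 58.5 and 58.2 to 71.2 and 84.2 (0.48, adjusted p = 0.000851).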
